A study of Mus musculus with 12 samples.

Results

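The microRNAs mmu-miR-103 and mmu-miR-107 were followed through 2 days and nights in the livers of mice. They are the 2 array entries whose name on the array is exactly miR-103 or miR-107, of 650 entries in all (611 of the mouse and 39 of herpesviruses), and both were detected on every array. The adult mice had 12 h of light a day followed by 12 h of dark, and could eat and drink at will; neither genotype, strain, sex nor exact age is given in the sources used here. Zeitgeber time (ZT) counts hours from lights on. Livers were collected every 4 h, from ZT18 to ZT62, and the RNA of 2 livers was mixed in equal amounts and measured on 1 one-colour array per time. The 12 arrays thus covered 6 clock times (2, 6, 10, 14, 18 and 22 h after lights on) in 2 cycles 24 h apart, with 6 arrays in the dark and 6 in the light. Each value comes from a pool, so the spread between single mice is not seen, and p-values measure the spread between pools together with labelling and hybridisation. The title names circadian control by miRNAs after transcription as the subject of the study.

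A miRNA pairs with messenger RNAs chiefly through its seed, the bases near its 5′ end, and lowers their stability or translation. miR-103 and miR-107 lie within genes for pantothenate kinases, the enzymes that begin the making of coenzyme A from vitamin B5. In mice both miRNAs are known to reduce insulin sensitivity of liver and fat, with caveolin-1, a protein that steadies the insulin receptor, as a direct target, and they are raised in the liver of obese mice. The liver's handling of glucose and lipids, its clock and the daily feeding of mice are closely linked, which is why their level over the day is of interest.

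The mature sequences are shown because the 2 miRNAs can hardly be told apart by sequence. They are RefSeq's, by name, from mouse build GRCm38.p6, and the array files name no build. The capitals mark the seed, bases 2 to 8.
miR-103: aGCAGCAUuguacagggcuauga
miR-107: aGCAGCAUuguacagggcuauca
Over their 23 bases they differ by 1 substitution, G22C, written from miR-103 to miR-107 and counted from the 5′ end. Among 1674 different mature mouse sequences in RefSeq, 2 had this seed, those of miR-103 and miR-107. The longest run of bases that miR-103 shared was 21 with miR-107 and 9 with the next sequence, miR-200b-5p. The files do not give probe sequences, and how far each probe also binds the other miRNA was not tested.

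The hairpins from which they are cut are shown with the mature form in capitals, since 2 of the 3 give the same mature miR-103 and the array cannot separate these sources. Mir103-1 lies at chr11:35782396-35782481 on the plus strand, within Pank3. Mir103-2 lies at chr2:131288052-131288137 on the plus strand, within Pank2. Mir107 lies at chr19:34820687-34820773 on the minus strand, within Pank1. Each host gene runs on the strand of its hairpin in GRCm38.p6, and exons and introns were not looked up.
Mir103-1: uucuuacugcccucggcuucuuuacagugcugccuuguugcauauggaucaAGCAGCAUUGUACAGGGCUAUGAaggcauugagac
Mir103-2: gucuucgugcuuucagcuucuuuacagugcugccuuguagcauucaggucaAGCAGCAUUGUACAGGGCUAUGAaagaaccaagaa
Mir107: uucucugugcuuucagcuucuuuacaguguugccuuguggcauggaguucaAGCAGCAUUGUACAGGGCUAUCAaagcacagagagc
The other arms differ as little. From miR-103-1-5p to miR-103-2-5p there was 1 substitution, G1A, and from miR-103-2-5p to miR-107-5p there was 1, C16U.

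Each array detected 132 to 162 entries, and the tests took the 139 that 6 or more arrays detected. The markers matched liver: 5 of 5 hepatocyte miRNAs were detected on all arrays, and 0 of 4 striated muscle, 0 of 4 neuronal and 0 of 4 pancreatic miRNAs were detected on any. The 2 endothelial, 2 of 3 red cell, 3 of 5 leukocyte and 3 of 5 mesenchymal miRNAs were detected on all arrays, so the values are those of whole liver. Of the 5 bile duct miRNAs 0 were detected on all arrays, but miR-200b was detected on 11, miR-200a on 10 and miR-429 on 2. In the 4 tests below 0 members of these lists passed in limma, beside 0 of all 139 tested entries (0%) in each test. In such bulk RNA, fewer cells of a type and less RNA per cell cannot be told apart. Levels are given as scaled intensity, the background-subtracted brightness of a probe after each array was brought to a common level, or as its log2. An intensity depends on the probe, so the levels of miR-103 and miR-107 are not set against each other.

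Both miRNAs were measured well above background and hardly moved over the 2 days. Each had 2 different probes with 10 spots per array, and 120 of 120 spots of every probe were well above background, with 0 saturated. In the first cycle the brighter miR-103 probe measured 171 at ZT18, 191 at ZT22, 179 at ZT26, 174 at ZT30, 185 at ZT34 and 168 at ZT38. In the second cycle it measured 189.6 at ZT42, 178 at ZT46, 171 at ZT50, 189 at ZT54, 181 at ZT58 and 178 at ZT62. The highest array, ZT22, was 1.14-fold above the lowest, ZT38, and both were dark arrays of the first cycle.

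miR-107 had a similarly narrow range. In the first cycle its brighter probe measured 345 at ZT18, 384 at ZT22, 334 at ZT26, 331 at ZT30, 374 at ZT34 and 323 at ZT38. In the second cycle it measured 344 at ZT42, 348 at ZT46, 346 at ZT50, 351 at ZT54, 358 at ZT58 and 330.3 at ZT62. The highest array was again ZT22 and the lowest again ZT38, 1.19-fold apart. The SD of miR-107 over 6 arrays was 0.04 log2 units in the second cycle and 0.10 in the first, a difference that was not tested.

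**Figure D1:**
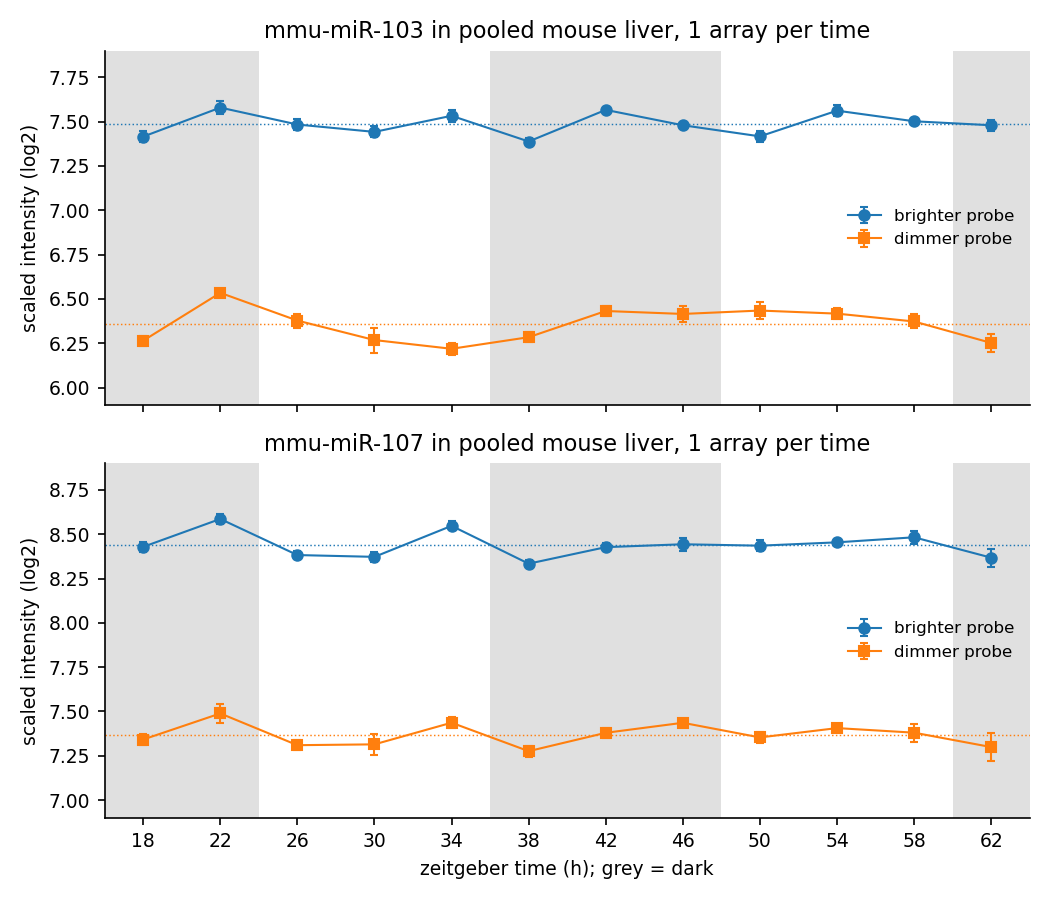
Scaled intensity (log2) of the brighter and dimmer probe of miR-103 and miR-107 at each zeitgeber time, 1 array of pooled liver RNA per time. Points are means over spots, bars are standard errors over spots, dotted lines are means over the 12 arrays and grey marks the dark. All 4 probes were highest at ZT22.

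Over the 12 arrays miR-103 averaged 179.6 ± 7.94 intensity units (SD, n = 12), a coefficient of variation of 4.42%. miR-107 averaged 347 units, or 8.44 ± 0.07 on the log2 scale (SD, n = 12), a coefficient of variation of 5.18%. The spots of a probe on 1 array varied by 2.37% to 8.03% for miR-103 and by 3.69% to 11.5% for miR-107. The resulting standard error of an array's log2 level was 0.03 for both (root mean square), against an SD between arrays of 0.06 for miR-103 and 0.07 for miR-107. The first counts the spots of an array alone, and the second also the pools and hybridisations.

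A floor of 21.6 intensity units was set under all values, and 109 tested entries never touched it. Among these the SD of miR-103 ranked 23rd from the smallest and that of miR-107 34th, with a median SD of 0.10. Of the 29 such entries within 1 log2 unit of miR-103, 4 had a smaller SD, and of the 23 within 1 log2 unit of miR-107, 12 had. By mean intensity, miR-107 ranked 36th and miR-103 49th of the 139. Among herpesvirus entries, which are not mouse miRNAs, the brightest, mcmv-miR-M23-1-5p, averaged 149 units, so brightness alone does not show that a signal belongs to its named miRNA.

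The dimmer probes moved little as well. The dimmer miR-103 probe lay between 74.5 (ZT34) and 92.7 (ZT22) intensity units, and averaged 82.1 ± 5.52 (SD, n = 12). The dimmer miR-107 probe lay between 155 (ZT38) and 179.6 (ZT22), and averaged 165 ± 7.47 (SD, n = 12). The ratio of the brighter to the dimmer probe stayed between 2.01 and 2.16 for miR-107 on all 12 arrays, and ranged from 1.98 to 2.49 for miR-103. At ZT34 the 2 miR-103 probes parted: the brighter one was among the higher arrays and the dimmer one at its lowest. The scanner software's own total signal per miRNA, unscaled, lay between 153 and 197 for miR-103 and between 306 and 392 for miR-107, with a stated error of 7.76% to 8.81% and 7.56% to 7.89% of the signal.

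A 24-h rhythm was asked for first, since it is the question of the study. Neither miRNA had one that the test could call. The fitted peak-to-trough fold was 1.01 for miR-103, with an upper 95% limit of 1.13, and 1.02 for miR-107, with an upper limit of 1.16. The fitted maxima, 1.90 h and 1.07 h after lights on, have little meaning at such amplitudes. Tested together by limma's moderated F, the cosine and sine terms gave no call: the adjusted p was 1.00 for miR-103 (unadjusted 0.947) and 0.993 for miR-107 (unadjusted 0.861). Over all entries 0 of 139 passed an adjusted p of 0.05 (0%), with 5 at an unadjusted p under 0.05.

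These limits hold for the scaling used here. With scaling on all probes the fitted 24-h folds were 1.33 for both miRNAs, and for miR-103 they were 1.302 with normexp background correction (1.03 without ZT58) and 1.14 with the dimmer probe, all above the limits just given and none called. Only 16.5% to 19.6% of an array's spots were well above background, so scaling on all probes took a percentile outside that share. It gave miR-103 an SD of 0.50 log2 units between arrays, against 0.06 with the scaling of the report. Of the 109 entries never at the floor, 13 had a smaller upper limit than miR-103 and 26 a smaller one than miR-107. The median over these entries was a fold of 1.07 with a limit of 1.25. With the scaling of the report, daily changes up to the limits of miR-103 and miR-107 remain compatible with the 12 arrays.

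**Figure D2:**
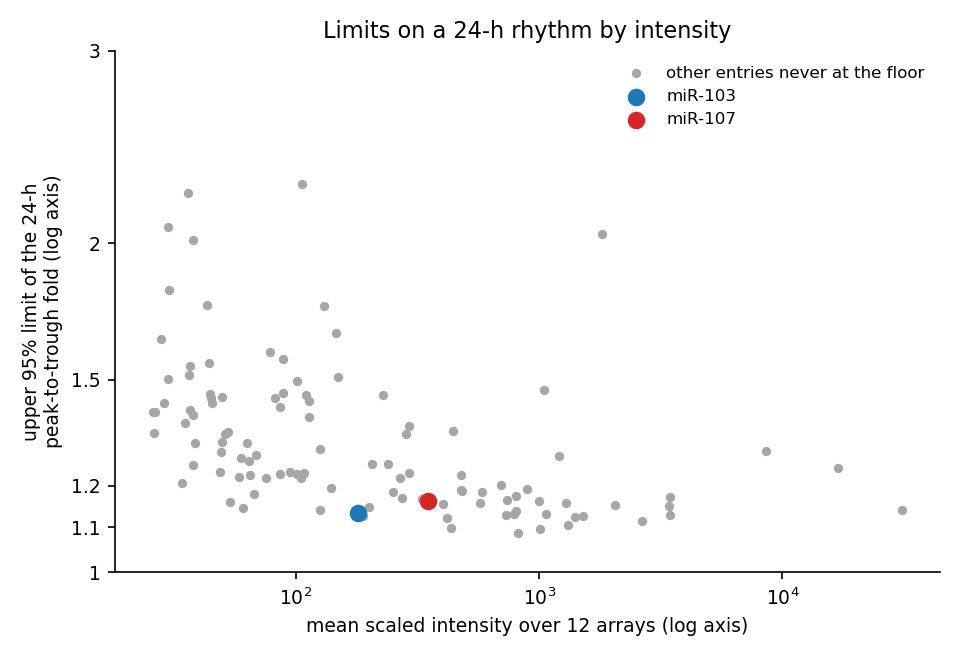
Upper 95% limit of the fitted 24-h peak-to-trough fold (log axis) against mean scaled intensity over the 12 arrays (log axis), for the 109 tested entries never at the floor. miR-103 (limit 1.13) and miR-107 (limit 1.16) lie in the lower part of the cloud.

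Dark was then set against light, which for nocturnal mice also sets activity and feeding against rest. miR-103 lay between 168 and 191 on the dark arrays, with a median of 178, and between 171 and 189 on the light arrays, with a median of 180.1. On the log2 scale this was 7.48 ± 0.08 in the dark and 7.49 ± 0.05 in the light (SD, n = 6 each). The 2 groups overlapped almost wholly, and 2 of 6 dark arrays lay above the light mean. The dark over light fold was 0.996, with a 95% interval of 0.940 to 1.06.

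miR-107 lay between 323 and 384 on the dark arrays, with a median of 344, and between 331 and 374 on the light arrays, with a median of 348. Its log2 level was 8.43 ± 0.09 in the dark and 8.45 ± 0.07 in the light (SD, n = 6 each). Again the light arrays lay inside the range of the dark ones, and 1 of 6 dark arrays, ZT22, lay above the light mean. The fold was 0.990 (95% interval 0.927 to 1.06). In limma the adjusted p was 1.00 for miR-103 and 0.974 for miR-107, and 0 of 139 entries passed (0%), with 11 at an unadjusted p under 0.05.

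Clock times were also compared with no shape assumed. The order of the clock-time means was 14, 2, 18, 6, 10 and 22 h for miR-103, from 7.43 ± 0.06 log2 units at 14 h to 7.53 ± 0.07 at 22 h (SD, n = 2 each). For miR-107 the order was 14, 2, 6, 18, 22 and 10 h, from 8.35 ± 0.02 at 14 h to 8.51 ± 0.05 at 10 h (SD, n = 2 each). With this scaling both miRNAs were thus lowest 2 h after lights off. Unscaled, the 14 h arrays measured 196 and 181 for miR-103, against 175 and 165 at 2 h. For miR-107 they measured 378 and 334, against 327 and 334 at 2 h. The largest gap between the 2 arrays of one clock time was 0.15 for miR-103, at 18 h, which exceeds the whole span of its clock-time means, 0.10. For miR-107 the largest such gap was 0.14, at 22 h, against a span of 0.16. As folds the spans were 1.07 for miR-103 and 1.12 for miR-107. With scaling on all probes they were 1.74 and 1.78, and with normexp that of miR-103 was 1.61 (1.08 without ZT58), again with no call. In limma, the F test of clock time gave an adjusted p of 0.883 for miR-103 and 0.795 for miR-107 (unadjusted 0.711 and 0.0903). Of the 139 entries 0 passed (0%), with 5 at an unadjusted p under 0.05.

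Levels a day apart were compared within clock times. The cycle 2 arrays had miR-103 at 7.50 ± 0.06 and the cycle 1 arrays at 7.47 ± 0.07 (SD, 6 arrays each), and 3 of 6 pairs were higher in cycle 2. The fold was 1.02, with a 95% interval of 0.949 to 1.095. For miR-107 the cycle 2 arrays stood at 8.44 ± 0.04 and the cycle 1 arrays at 8.44 ± 0.10 (SD, 6 arrays each), again with 3 of 6 pairs higher in cycle 2. Its fold was 0.995, with a 95% interval of 0.941 to 1.05. In limma the adjusted p was 0.876 for miR-103 and 0.969 for miR-107, and 0 of 139 entries passed (0%), with 5 at an unadjusted p under 0.05.

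The arrays came from 2 slides: slide 2 held ZT50 to ZT62 and slide 1 the 8 earlier times, so slide and cycle overlap in part. miR-103 measured 7.49 ± 0.06 on slide 2 (SD, n = 4) and 7.49 ± 0.07 on slide 1 (SD, n = 8), and miR-107 measured 8.43 ± 0.05 (SD, n = 4) and 8.44 ± 0.09 (SD, n = 8). With the slide as a block, the 24-h folds were 1.01 and 1.02, the dark minus light differences -0.0044 and -0.019, and the cycle 2 minus cycle 1 differences 0.026 and -0.072, for miR-103 and miR-107 in this order. On slide 1 alone the 24-h folds were 1.05 and 1.03 and the dark minus light differences -0.00055 and 0.0098. Neither miRNA passed any of the 4 limma tests in these fits, the smallest adjusted p being 0.794. Slide 2 holds 1 dark array, too few for a value of its own.

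Whether the 2 paralogues moved apart was asked through the log2 difference of miR-103 minus miR-107 on each array, which does not depend on a factor between arrays. The difference lay between -1.02 and -0.86 and averaged -0.95 ± 0.06 (SD, n = 12). Probe response and abundance cannot be told apart in its sign and size. The log2 difference was -0.95 ± 0.06 in the dark and -0.96 ± 0.06 in the light (SD, n = 6 each), a difference of 0.0093 with a two-sided p of 0.760 by an exact permutation test. The cycle 2 arrays averaged -0.93 ± 0.06 and the cycle 1 arrays -0.97 ± 0.05 (SD, 6 arrays each), higher in cycle 2 in 5 of 6 pairs, with a two-sided p of 0.406 by exact sign flips, whose smallest possible p is 0.031. Its 24-h peak-to-trough difference was 0.017 log2 units, with a p of 0.940 from 100000 permutations of the time labels. It was 0.229 with normexp (0.025 without ZT58) and 0.127 with the dimmer probes. Adjusted over these 3 comparisons, each permutation p was 0.940. After this adjustment the sign-flip test could pass 0.05 only if another of the 3 also had a small p.

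With 1 array per pool, variation between pools cannot be told apart from that between hybridisations. Across arrays the brighter probes of the 2 miRNAs were correlated, but r varied with the arrays kept and with the way the signal was summarised. Pearson's r of their brighter probes over the 12 arrays was 0.668 (permutation p = 0.0169, two-sided) and Spearman's rho was 0.6503 (permutation p = 0.0255). ZT38 was the lowest array only after scaling, and it had the lowest scaling factor, 0.853. Unscaled, it measured 196 for miR-103 and 378 for miR-107, in ranges over the arrays of 162 to 212 and 321 to 425. Without ZT22 and ZT38, the arrays farthest from the median of miR-103, r was 0.398 over 10 arrays. Leaving out the extremes of miR-103 narrows its range, which by itself tends to lower r. The correlation also missed the threshold with the software's total signal, where r was 0.180 (permutation p = 0.573). With quantile normalization, where r was 0.350, it missed it too (permutation p = 0.308). Over 12 alternatives r ranged from 0.180 to 0.994, and 8 of the 12 kept the outcome. Within slide 1 r was 0.758 (exact permutation p = 0.0299, n = 8) and rho 0.667 (exact permutation p = 0.0831, n = 8), and slide 2 has only 4 arrays. All probes of an array share its hybridisation and scaling.

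**Figure D3:**
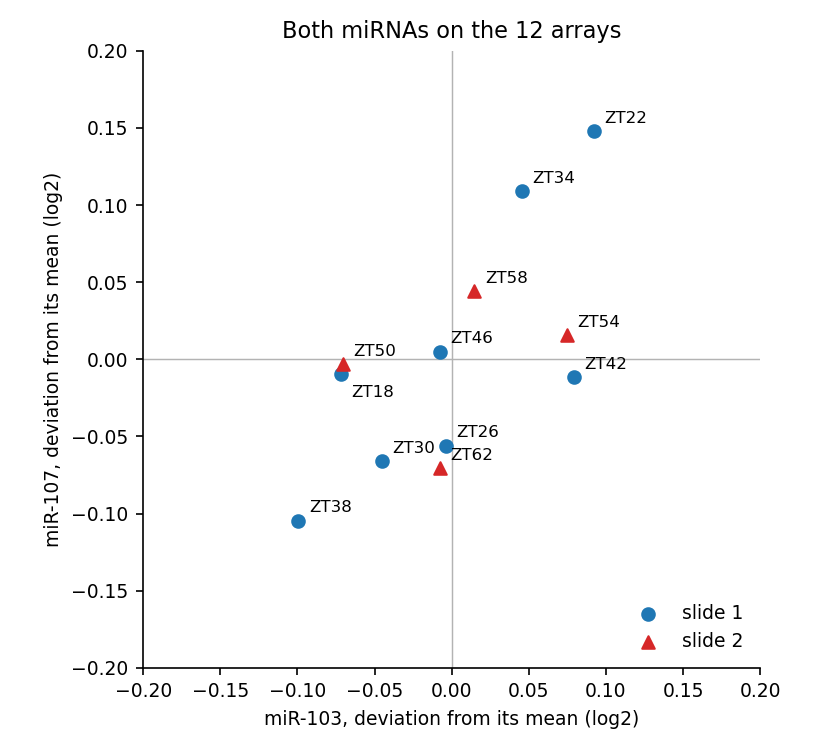
Deviation of miR-107 from its mean (log2) against that of miR-103 on the 12 arrays, brighter probes, marked by slide. After scaling, ZT22 is the highest and ZT38 the lowest array on both axes, and without them r was 0.398.

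The 4 probes gave 6 such pairs, and p-values were adjusted over them. The relation above had an adjusted permutation p of 0.0339 for r and 0.0510 for rho. The 2 miR-107 probes followed each other closely, with r of 0.921 (adjusted permutation p = 0.00024), and 0.858 without ZT22 and ZT34. The 2 miR-103 probes did so less, with r of 0.492 (adjusted permutation p = 0.124), and 0.240 without ZT22 and ZT38. The brighter miR-103 probe had a higher r with the dimmer miR-107 probe, 0.724 (adjusted permutation p = 0.0254), and 0.513 without ZT22 and ZT38, than with the other probe of miR-103. Whether these values of r differ from each other was not tested. The dimmer miR-103 probe had r of 0.418 with the brighter and 0.554 with the dimmer miR-107 probe (adjusted permutation p = 0.180 and 0.0946). Without ZT22 and ZT34 these were 0.638 and 0.723.

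Many other entries resembled them as much. Over the 12 arrays and among 108 other entries never at the floor, miR-107 ranked 12th in r with miR-103, and miR-103 ranked 25th in r with miR-107. The closest to miR-103 were miR-194, which is made from shared transcripts with miR-192 (r = 0.817), miR-125b-5p (0.814) and miR-30c (0.794). The closest to miR-107 were let-7d (0.920) and let-7g (0.878), of the family that restrains growth genes, and miR-23b (0.890). The median r over all 108 was 0.25 for miR-103 and 0.36 for miR-107. These are descriptions over 12 arrays of one hybridisation each.

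The miR-15/16 group begins with a related stretch, shifted by 1 base, and restrains genes of the cell cycle. The brightest and the most variable members on the array are shown, with the 6 bases that they share with the start of miR-103 in capitals (RefSeq, GRCm38.p6, where miR-195 is named miR-195a and miR-497 miR-497a).
miR-15a: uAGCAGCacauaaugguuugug
miR-16: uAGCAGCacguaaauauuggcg
miR-195a: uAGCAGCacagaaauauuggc
miR-497a: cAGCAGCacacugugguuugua
With miR-103 and miR-107, 9 of these 10 names had an entry, 8 could be tested, and miR-503 was detected on 0 arrays. In the 24-h, dark-light, clock-time and cycle tests 0 of 8 passed in limma, beside 0 of all 139 tested entries (0%) in each.

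miR-16 and miR-15a, the brightest of the group at 816 and 728 intensity units, had 24-h folds of 1.01 (upper limit 1.09) and 1.04 (upper limit 1.13). The highest dark minus light difference belonged to miR-195, which measured 6.87 ± 0.11 in the dark and 6.69 ± 0.13 in the light (SD, n = 6 each). Its dark over light fold was 1.14, with limits of 1.02 and 1.26 at 95% and an adjusted p of 0.496 in limma. Its 24-h fold of 1.17 was also the largest of the group. The lowest difference belonged to miR-15b, at a fold of 0.966, with limits of 0.887 and 1.05. The median dark minus light difference of the 8 was 0.011 log2 units, 4 higher and 4 lower, against -0.02 for the 139 tested entries, 41 higher, 93 lower and 5 equal because they lay at the floor on all 12 arrays.

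No daily change could be called for other miRNAs tied to insulin action and glucose either. Of a list of 46 names, 29 entries could be tested, and 0 passed any of the 4 tests in limma, each beside a background of 0%. Leaving out the ZT46 array leaves 1 array at 22 h. In that fit the clock-time outcome changed for miR-143 and miR-29b, and for no other tested entry. The median 24-h fold of the 25 never at the floor was 1.05, against 1.07 for all 109, and the median dark minus light difference of the 29 was -0.0031, with 14 higher and 15 lower. miR-122, the main miRNA of hepatocytes, and miR-22 were the brightest, with dark over light folds of 0.982 and 0.998. The lowest dark minus light difference was -0.11 for miR-34a, a target of p53, with a fold of 0.926 (95% interval 0.809 to 1.06). The highest was 0.38 for miR-200a, an epithelial miRNA, which lay at the floor on 3 arrays. miR-143, a smooth muscle miRNA that impairs insulin signalling in the liver of obese mice, had the largest 24-h fold among those never at the floor, 1.34 (upper limit 1.75), at a mean of only 43.2 units.

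**Figure D4:**
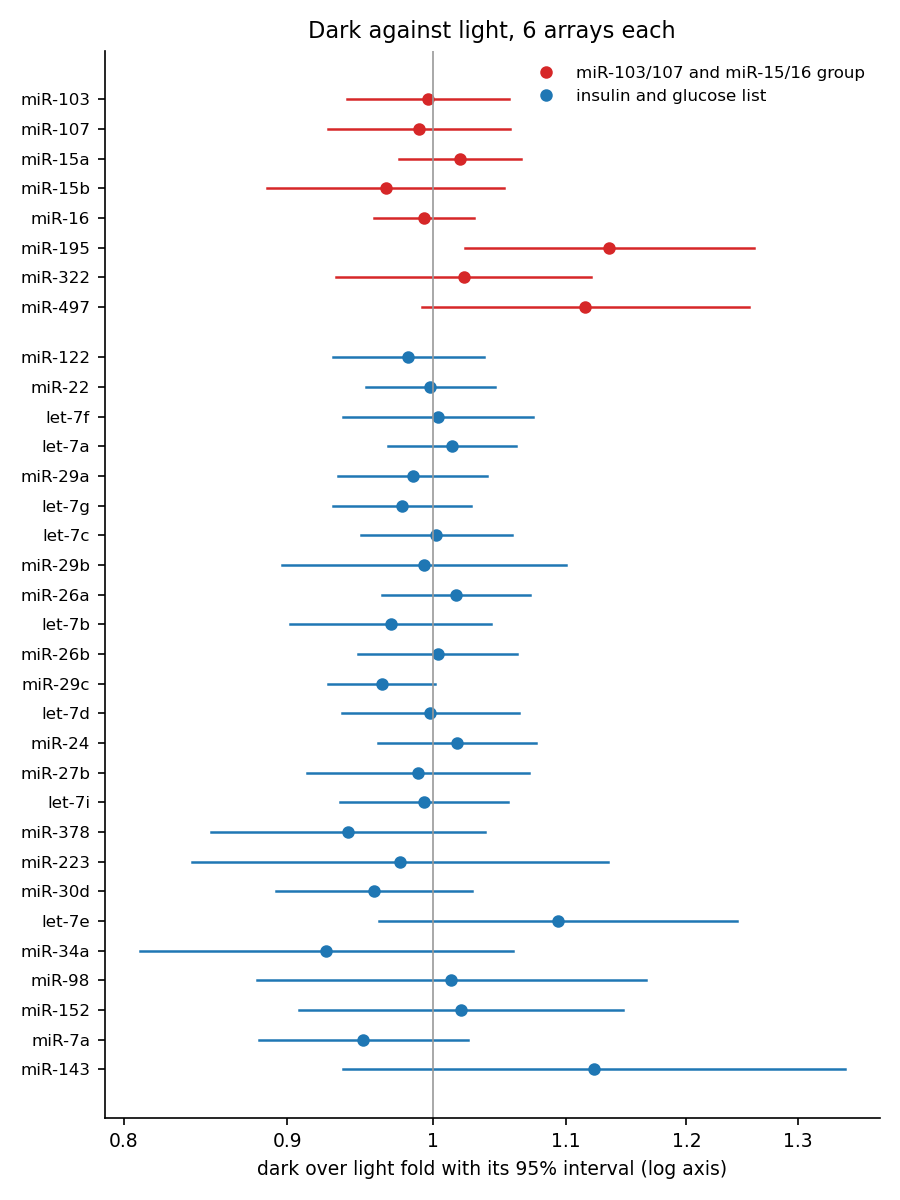
Dark over light fold (log axis) with its 95% interval from limma, 6 arrays each, for miR-103, miR-107 and the miR-15/16 group (upper block) and for tested miRNAs of the insulin and glucose list that were never at the floor, ordered by mean intensity (lower block). The intervals of miR-103 (0.940 to 1.06) and miR-107 (0.927 to 1.06) hold a fold of 1.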

How the data were processed

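Total RNA of pooled livers was measured on Agilent one-colour (Cy3) miRNA arrays. The deposited values are spot intensities, background-subtracted and detrended within the array by Feature Extraction, version 10.7.3.1 per the file headers and 9.5.3.1 per the submitters' processing notes. The deposited series value table holds the same intensities (largest difference 0; column medians 0.661 to 4.12). Genome build and strain are not given in the sources used here.

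Control spots and spots flagged as outliers were left out (3.82% to 6.94% of an array; of miR-103's brighter probe 4 of 120, of miR-107's 2 of 120) and spots of a probe averaged. Arrays were scaled to the 75th percentile of the 157 probes detected (over 50% of spots well above background) on all 12 arrays, by factors of 0.853 to 1.08. Before log2, values were raised to a floor of 21.6 units: the lowest signal of a detected probe on each array, taken as the median of the 12. Each entry was its brightest probe. The 139 entries that 6 or more arrays detected went into limma 3.58.1 in R 4.3.3 (with the data.table package, version 1.17.8, and an intensity trend), adjusted by Benjamini-Hochberg at 0.05; permutations used numpy 2.4.6 and scipy 1.17.1 in Python 3.11.15. The 24-h upper limit used the 95% region for cosine and sine jointly. The fits were also run on simulated data of independent normal values, with no floor and no effect shared by an array. Their recovery is not reported here. Members and lists (miR-15/16 group, insulin and glucose, and cell markers of hepatocytes, endothelium, red cells, leukocytes, mesenchyme, bile duct, striated muscle, neurons and pancreas) were chosen with earlier results of these data known. Named miRNAs were the members, the 3 entries most correlated with each and, of each of the first 2 lists, the 2 brightest, the lowest and highest dark minus light and the largest 24-h fold never at the floor. Precision is limited by there being 12 arrays.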

Additional observations from a re-analysis of the deposited data

How the results depend on the processing

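Under every alternative tried, neither miR-103 nor miR-107 passed an adjusted p of 0.05 in any of the 4 limma tests, and the smallest of their adjusted p-values was 0.116. Their dark-light and cycle differences were near 0 with the scaling of the report, and signs and sizes changed with the scaling and the background correction. miR-103's dark minus light difference became 0.424 with scaling on all probes, 0.046 with quantile normalization, 0.056 without scaling, 0.0051 with the mean of probes, 0.012 with the software's total signal and 0.016 with the dimmer probe; for miR-107 it became 0.415, 0.025, 0.046 (without scaling), 0.0028 (total signal), 0.0035 (dimmer probe) and 0.0098 (slide 1 alone). The cycle difference of miR-103 became -0.51 (all probes), -0.046 (quantile) and -0.018 (no scaling), and that of miR-107 0.085 (normexp), 0.011 (normexp without ZT58), 0.0039 (mean of probes) and 0.015 (dimmer probe). With the sign kept, normexp gave -0.22 and -0.11 for dark minus light of miR-103 and miR-107 and 0.226 for the cycle difference of miR-103 (-0.025, -0.016 and 0.044 without ZT58), and all-probe scaling gave -0.54 for the cycle difference of miR-107. All-probe scaling moved the median of all entries by 0.38 and -0.50 in these 2 comparisons. For miR-103 minus miR-107, dark minus light became -0.11 with normexp, -0.0088 with normexp without ZT58 and -0.010 on slide 1, and cycle 2 minus cycle 1 became -0.046 with quantile normalization, which left 4 distinct levels of miR-103 and 2 of miR-107. Normexp was run on the spots' median signals and put miR-103 at 9.12 on ZT58, with a lowest level of 7.81. The fits with the dimmer probes, with normexp without ZT58 and with no filter and no variance trend were chosen after seeing the data.

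Leaving out each array in turn gave dark minus light values of -0.024 to 0.014 for miR-103, -0.046 to 0.0058 for miR-107 and -0.0078 to 0.023 for their difference. Cycle values were 0.0028 to 0.053 for miR-103, -0.024 to 0.020 for miR-107 and 0.011 to 0.065 for their difference. Without either 2 h array the adjusted permutation p of the last was 0.188. The 5 pairs then left were all higher in cycle 2, which gives the smallest p that sign flips allow. With so few pairs this test could not pass 0.05. The r of miR-103 with miR-107 ranged from 0.552 (without ZT22) to 0.747. It missed 0.05 without ZT22, without ZT38 (0.575), without both (0.398), with quantile normalization (0.350), the total signal (0.180) and the dimmer probes (0.554). Of 12 alternatives other than leaving out 1 array, 8 kept the outcome, with r up to 0.994. Counts of all entries passing went from 0 to 2 (dark-light, without ZT30: miR-101b and miR-1895) and from 0 to 8 (clock times, without ZT26; 2, miR-143 and miR-29b, without ZT46; 1, miR-362-3p, without ZT54; 1, miR-680, without ZT58). Normexp gave 1 (miR-451) in the 24-h and 1 (miR-451) in the clock-time test, and 0 in both without ZT58; slide 1 alone gave 3 in the clock-time test (miR-1897-5p, miR-362-3p and miR-680). These names were chosen after their values were seen, and the cause was not tested. The unfiltered fit was run without the variance trend, which could not be fitted on all entries. With cycle as a replicate block the dark minus light values of miR-103 and miR-107 were unchanged at -0.0052 and -0.015; the numbers only name the cycles.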
